A study of Mus musculus with 8 samples.

Results

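Genes that define tendon cells and their progenitors were followed in mouse tendon stem cells (TSCs), and all 10 of 10 were found by symbol in the table of 19301 genes. They are the tendon transcription factors Scx, Mkx, Egr1 and Egr2, the tenocyte marker Tnmd, and the progenitor and surface markers Tppp3, Pdgfra, Ly6a, Thy1 and Cd34. The cells were labelled as primary tendon stem cells. By the study's methods they were grown out of collagenase-digested patellar tendon, with C57BL/6J mice as the strain of the study. The low glucose (LG) group was kept in 5.5 mM glucose with the vehicle DMSO, and the high fat, high glucose (HFHG) group in high glucose medium with 300 µM palmitic acid, a saturated fatty acid. Both groups were cultured for 4 days, with 4 biological replicates in each, and no gene was deleted or introduced in either group. The number of mice behind the replicates and their age are not given in the sources used here.

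Tendon cells arise from mesenchymal progenitors that switch on Scx, which encodes the bHLH factor scleraxis. Mkx encodes the homeodomain protein Mohawk, and Egr1 and Egr2 encode zinc finger factors that respond quickly to growth factors and to mechanical load. These factors act on collagen and proteoglycan genes, and Tnmd, which encodes the membrane glycoprotein tenomodulin, is a late marker of the tenocyte that depends on Scx. Progenitors are instead sorted by surface proteins such as PDGF receptor alpha (Pdgfra), Sca-1 (Ly6a), CD90 (Thy1) and CD34, and Tppp3, a tubulin-binding protein, marks progenitors of the tendon sheath.

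Expression was measured as FPKM, the reads of a gene divided by its length and by the read total of the library, so levels of different genes can be set side by side. Values after ± are SDs over the 4 libraries of a medium. The number of reads behind each value was recovered from the values themselves. The library totals were recovered in the same way, at 34308108 to 37362725 reads, of which 99.8% fell on the listed genes. Whether these totals are all mapped reads is not given in the sources used here. Genes with at least 0.5 FPKM in at least 4 libraries were compared between the media with limma on log2(FPKM + 0.1). All 10 genes passed this filter, Tnmd and Egr2 through their HFHG libraries, since some of their LG values were below 0.5 FPKM. The fold changes given are on the log2(FPKM + 0.1) scale, which understates those of genes near 1 FPKM. At an adjusted p below 0.05, 64.8% of the 11710 tested genes differed, 34% as higher and 30.8% as lower in HFHG, so a call at this threshold was common in these data. LG replicate 4 stood apart from the other libraries on a principal component with 4.18% of the variance, and the values without it are given where they bear on a gene.

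The sequences that belong to these genes are shown for those on which the results turn. The study also lists qPCR primers for Scx, Tnmd and Mkx, and those of Scx and Tnmd are printed to show which part of each transcript that assay reads. The Scx primers span chr15:76457965-76459096 (GRCm38, plus strand), from exon 1 to exon 2 of a transcript with 2 exons, for a product of 237 bases. The Tnmd primers span chrX:133851526-133859848 (GRCm38, plus strand), from exon 2 to exon 3 of a transcript with 7 exons, for a product of 154 bases. Each pair therefore crosses an intron. The FPKM is not limited to these products, as the gene lengths recovered from the values were 1600 bases for Scx and 1325 bases for Tnmd. Which reads of a gene were counted is not given in the sources used here.
Scx forward primer: ctggcctccagctacatttct
Scx reverse primer: gtcacggtctttgctcaactt
Tnmd forward primer: acacttctggcccgaggtat
Tnmd reverse primer: gacttccaatgtttcatcagtgc

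Promoter windows from 250 bases before to 50 bases after a start site were taken from RefSeq (GRCm38.p6), which gave a window for 4 of the 10 genes, namely Egr2, Tnmd, Pdgfra and Cd34. Windows were searched on both strands for the GC box GGGCGG, the EGR site GCGNGGGCG, the E-box CANNTG to which bHLH factors bind, the AP-1 site TGANTCA, the TATA box TATAAA, the CCAAT box CCAAT and the CArG box to which serum response factor binds. The GC box and the EGR site can share bases. Among 32851 windows of this length, 35.7% held the GC box, 5.55% the EGR site, 72.3% the E-box, 7.81% the AP-1 site, 13.6% the TATA box, 37.4% the CCAAT box and 1.63% the CArG box. The windows of Pdgfra (chr5:75152001-75152300, plus strand) and Cd34 (chr1:194938571-194938870, plus strand) are printed because only these genes of the 10 differed more than 2-fold between the media. A window of Egr2 (chr10:67537620-67537919, plus strand) is printed because it holds the least common of the motifs. Capitals mark the matches.
Pdgfra promoter: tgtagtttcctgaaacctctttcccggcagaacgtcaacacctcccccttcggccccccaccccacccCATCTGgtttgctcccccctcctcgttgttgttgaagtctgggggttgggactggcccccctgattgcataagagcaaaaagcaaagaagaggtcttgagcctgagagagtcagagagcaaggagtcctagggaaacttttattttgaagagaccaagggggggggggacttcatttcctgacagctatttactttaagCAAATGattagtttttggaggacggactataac
Cd34 promoter: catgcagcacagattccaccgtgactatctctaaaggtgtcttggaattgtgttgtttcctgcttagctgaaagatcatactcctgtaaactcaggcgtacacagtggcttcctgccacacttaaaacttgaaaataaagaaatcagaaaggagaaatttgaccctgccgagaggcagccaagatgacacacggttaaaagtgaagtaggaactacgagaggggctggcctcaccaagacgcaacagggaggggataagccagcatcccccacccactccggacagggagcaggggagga
Egr2 promoter: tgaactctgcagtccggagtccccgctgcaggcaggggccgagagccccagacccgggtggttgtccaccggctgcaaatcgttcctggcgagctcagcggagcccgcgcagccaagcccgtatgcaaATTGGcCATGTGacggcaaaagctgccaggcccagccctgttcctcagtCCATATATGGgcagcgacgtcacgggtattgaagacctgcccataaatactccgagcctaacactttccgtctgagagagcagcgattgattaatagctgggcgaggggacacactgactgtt
The Pdgfra window held 2 E-boxes and none of the other motifs. None of the 7 motifs was found in the window of Cd34 or in that of Tnmd. The printed Egr2 window held 1 CArG box, 1 CCAAT box and 1 E-box, and a CArG box was found in 4 of its 5 windows, some of which overlap and share letters. A match says only that the letters are there.

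At an adjusted p below 0.05 by limma, 7 of the 10 genes were upregulated in HFHG, against 34% of all tested genes. Another 2 were downregulated, against 30.8%, and 1 did not pass. The same shares are the background to the counts of the gene lists below. The tenocyte marker Tnmd, the transcription factor Scx and all 5 progenitor and surface markers were higher, and the transcription factors Mkx and Egr1 were lower. Between the media, the values stood fully apart in 8 of the 10 genes, as in 59.2% of all tested genes, with 6 genes higher (31.1% of all tested genes) and 2 lower in HFHG (28.1%). In bulk RNA, fewer cells of a type and less RNA per cell cannot be told apart. The median log2 fold change of the 10 genes was 0.60, against 0.02 over all tested genes. With the cut-off of the study's methods, more than 2-fold at an unadjusted p below 0.05, Pdgfra and Cd34 were upregulated (3.68% of all tested genes) and 0 genes of the 10 were downregulated (1.65%).

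**Figure D1:**
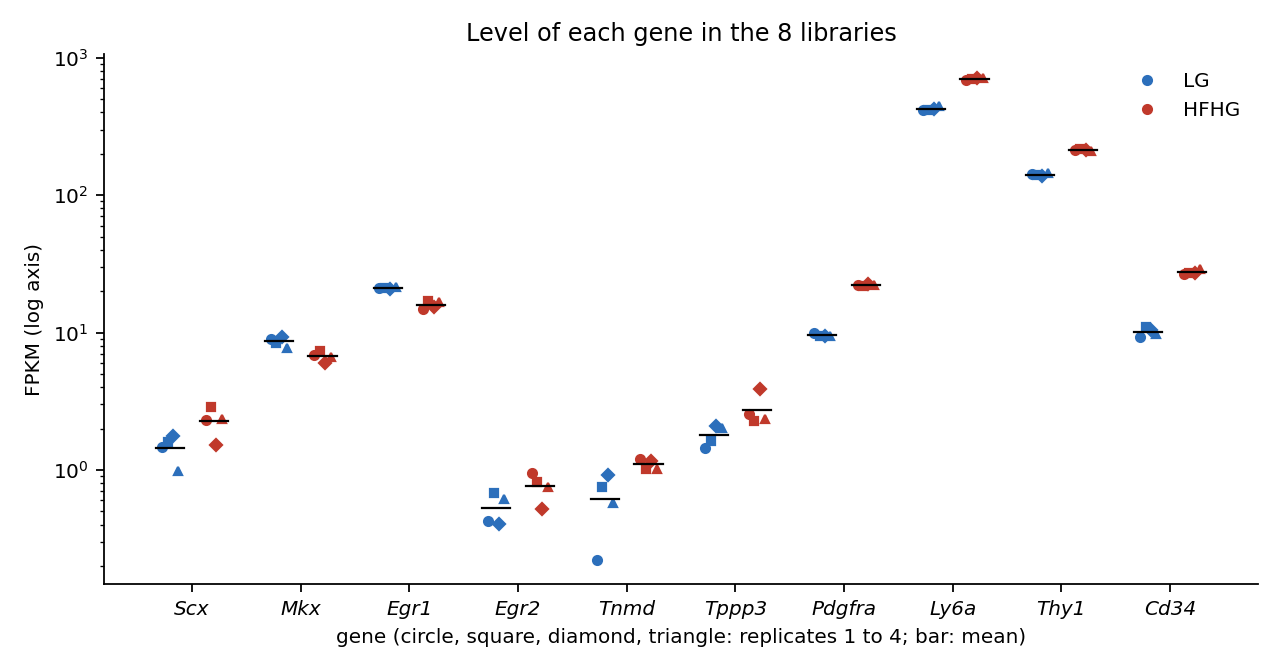
FPKM of the 10 genes on a log axis, with each of the 8 libraries as a point (blue LG, red HFHG, marker shape by replicate number) and the mean as a bar. Ly6a and Thy1 lie far above the rest, Tnmd and Egr2 lie near 1 FPKM, and the colours separate in all genes but Scx and Egr2.

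The levels covered a wide range. In LG, the order of mean FPKM from high to low was Ly6a (425), Thy1 (141), Egr1 (21.1), Cd34 (10.2), Pdgfra (9.59), Mkx (8.62), Tppp3 (1.80), Scx (1.45), Tnmd (0.614) and Egr2 (0.531). Neighbours in this order whose LG values overlapped were Cd34 and Pdgfra, Tppp3 and Scx, and Tnmd and Egr2. In HFHG, the order was Ly6a (701), Thy1 (213), Cd34 (27.6), Pdgfra (22.2), Egr1 (16.0), Mkx (6.73), Tppp3 (2.75), Scx (2.27), Tnmd (1.10) and Egr2 (0.759), and only Tppp3 and Scx overlapped. Egr1 thus ranked above Cd34 and Pdgfra in LG and below both in HFHG. The surface markers Ly6a and Thy1 were among the most abundant transcripts of the culture, with Ly6a above 98.7% of the tested genes in LG. Scx was above only 15.1% of the tested genes in LG and 20.9% in HFHG, and Tnmd above 4.08% and 9.59%. The surface markers Pdgfra and Cd34 lay in the middle of the range in LG, above 55.2% and 56.7% of the tested genes, and the progenitor marker Tppp3 lay beside Scx, above 18.6%. Of the markers of the labelled cell type among the 10 genes, Ly6a and Thy1 were thus abundant. Pdgfra, Cd34 and Mkx lay between, and Tppp3, Scx and Tnmd were low. The tendon matrix markers Col1a1, Col1a2, Thbs4 and Fmod averaged 206, 437, 168 and 31.4 FPKM in LG.

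Among the transcription factors, Scx is the earliest marker of the tendon lineage. Its expression in HFHG replicates 1 to 4 was 2.33, 2.88, 1.53 and 2.36 FPKM, and in LG replicates 1 to 4 it was 1.46, 1.60, 1.76 and 0.983 FPKM. Of the HFHG libraries, 3 lay above every LG library, and HFHG replicate 3 lay within the LG values. The means were 2.27 ± 0.558 and 1.45 ± 0.336 FPKM, and limma put the difference at 0.61 on the log2 scale with a standard error of 0.19 (adjusted p = 0.0138). An exact two-sided permutation test of the FPKM alone gave p = 0.0857, where 4 against 4 libraries cannot give less than 0.0286. Few reads stood behind Scx, 88 to 163 per HFHG library and 56 to 100 per LG library. Without LG replicate 4, which had the lowest Scx value, the estimate was 0.45 (adjusted p = 0.0405 by limma). Scx (chr15:76457452-76459458) lies within Bop1, a gene of ribosome synthesis on the opposite strand, with 0 shared exon bases in GENCODE M21. The libraries were stranded, but whether strand was used in counting is not given in the sources used here. Bop1 was 17.1 ± 0.823 FPKM in HFHG and 15.4 ± 0.330 FPKM in LG, a log2 fold change of 0.15, and its part in the Scx values was not tested.

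Mkx, which maintains the tendon cell and its type I collagen, moved the other way. Its HFHG values were 6.86, 7.35, 6.05 and 6.66 FPKM, and its LG values were 9.04, 8.36, 9.30 and 7.77 FPKM. Every HFHG library lay below every LG library, although HFHG replicate 2 and LG replicate 4 came close. limma put the difference at -0.35 on the log2 scale with a standard error of 0.07 (adjusted p = 7.49e-04), from 697 to 832 reads per HFHG library and 885 to 1055 per LG library. Mkx (chr18:6934518-7004780) shares 201 exon bases with AC148004.2, a transcript on the same strand that was not analysed here.

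Egr1, on chr18:34859823-34864984, was the most abundant of the 4 factors. It was 15.0, 17.0, 15.5 and 16.6 FPKM in HFHG and 21.0, 21.2, 20.8 and 21.4 FPKM in LG. The LG libraries were nearly equal (21.1 ± 0.226 FPKM) and the HFHG libraries were lower and more spread (16.0 ± 0.936 FPKM). On the log2 scale the media differed by -0.40, with 0.04 as the standard error and an adjusted p of 3.80e-06 in limma, and the estimate stayed between -0.44 and -0.34 over the 18 alternatives.

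Egr2 (chr10:67535475-67542188) was close to the filter, with 0.943, 0.822, 0.519 and 0.752 FPKM in HFHG and 0.428, 0.676, 0.407 and 0.615 FPKM in LG. HFHG replicate 3 was within the LG values, and the other HFHG libraries were above all LG libraries. The limma estimate was 0.44 in log2 units (95% interval 0.02 to 0.86, adjusted p = 0.0600), so Egr2 did not pass the threshold, while its interval reaches 0.86. It passed in 5 of 17 alternatives, among them the fits without HFHG replicate 3 (adjusted p = 0.0141) or LG replicate 2 (0.0308), within a range of 0.0141 to 0.313.

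Tnmd (chrX:133850980-133865577) was 1.19, 1.02, 1.15 and 1.01 FPKM in HFHG and 0.220, 0.748, 0.916 and 0.573 FPKM in LG. All HFHG values were above all LG values, while the LG values were widely spread. These values rest on 48 to 59 reads per HFHG library and on 10, 36, 43 and 27 reads in LG replicates 1 to 4. The variance of the reads was 6.78 times the Poisson variance among LG replicates and 0.362 times among HFHG replicates. The limma estimate was 0.86 in log2 units, its standard error 0.28 and its adjusted p 0.0164. It depended on LG replicate 1, without which it was 0.52 (adjusted p = 0.0111 by limma), and with a pseudocount of 1 it was 0.40.

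Tppp3 (chr8:105467493-105471526) was the least abundant of the progenitor markers, at 2.56, 2.26, 3.85 and 2.33 FPKM in HFHG and 1.46, 1.64, 2.09 and 2.03 FPKM in LG. The groups did not overlap, and HFHG replicate 3 was well above the other HFHG libraries. limma put the difference at 0.56 on the log2 scale with a standard error of 0.16 (adjusted p = 0.00814), and without HFHG replicate 3 it was 0.40 (adjusted p = 0.0170 by limma).

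The largest difference was that of Cd34 (chr1:194938819-194961279), which encodes a sialomucin of progenitor cells. Its expression was 26.8, 27.3, 27.4 and 29.1 FPKM in HFHG and 9.34, 11.0, 10.4 and 9.83 FPKM in LG. The lowest HFHG library was more than 2-fold above the highest LG library. On the log2 scale the media differed by 1.44, with 0.05 as the standard error and an adjusted p of 1.09e-10 in limma. Pdgfra (chr5:75152292-75198215), the receptor for PDGF-A and PDGF-C dimers, was 22.0, 22.0, 22.5 and 22.3 FPKM in HFHG and 9.99, 9.47, 9.44 and 9.48 FPKM in LG. Its replicates differed little (coefficient of variation 1.14% in HFHG and 2.74% in LG), and the groups were far apart. The limma estimate was 1.20 in log2 units, its standard error 0.04 and its adjusted p 2.19e-11. Antisense transcripts share 148 exon bases with Cd34 (Gm16897) and 456 with Pdgfra (Gm42802), and these were not analysed here.

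Ly6a (chr15:74994877-74998031), the gene of Sca-1, was 685, 699, 710 and 710 FPKM in HFHG and 416, 418, 424 and 442 FPKM in LG. Thy1 (chr9:44043384-44048579), the gene of CD90, was 214, 217, 212 and 210 FPKM in HFHG and 142, 140, 138 and 145 FPKM in LG. For both, each HFHG library lay far above each LG library. In limma, Ly6a differed by 0.72 on the log2 scale (adjusted p = 6.05e-11) and Thy1 by 0.60 (adjusted p = 2.87e-10), both with a standard error of 0.02. Ly6a rests on 14304 to 26003 reads per library, so counting error is small beside the difference. Quantile normalization, which reshapes the top of the range, raised its log2 fold change to 1.01.

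**Figure D2:**
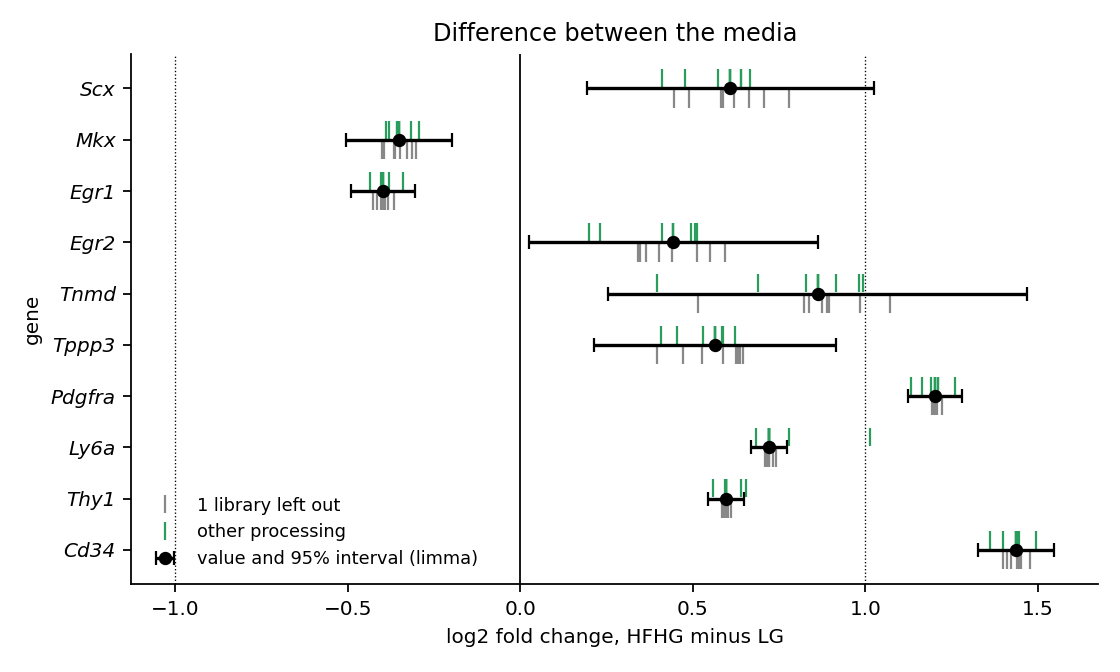
Log2 fold change (HFHG minus LG) of each gene with its 95% interval by limma, the values of 8 fits that left out 1 library each (grey ticks) and of 10 other processing choices (green ticks), with dotted lines at -1 and 1. Mkx and Egr1 lie below 0 throughout, Cd34 and Pdgfra lie above 1 throughout, and the intervals of Scx, Egr2, Tnmd and Tppp3 are wide.

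Ly6a, Thy1 and Cd34 are also carried by some blood and endothelial cells. Of the 13 macrophage and leukocyte markers listed, 12 were tested, 11 were lower in HFHG and 0 were higher at an adjusted p below 0.05 by limma. The summed level of the list was 1805 to 1852 FPKM in HFHG and 2009 to 2100 FPKM in LG, most of it from Lyz2. Adgre1, which encodes the macrophage protein F4/80, was 26.5 ± 1.23 FPKM in HFHG and 38.0 ± 1.28 FPKM in LG, and C1qa was 18.6 ± 0.549 and 36.6 ± 2.68 FPKM. Cd163 was at most 0.0439 FPKM in any library. The 11 markers were lower in HFHG, as were Mkx and Egr1, while Ly6a, Thy1, Cd34 and Pdgfra were higher. Which cells of the culture carried these transcripts was not measured, and the part of the 11 markers in those changes was not tested. The defining endothelial markers Pecam1 and Cdh5 were at most 0.183 and 0.195 FPKM, and 7 of the 10 endothelial markers were below 0.5 FPKM in every library, while 2 of the 3 tested were higher and 1 was lower in HFHG. The lower gene, Vwf, was tested through its LG libraries alone, as its HFHG values were at most 0.418 FPKM. The summed level of the mural and smooth muscle markers was 82.0 to 86.8 FPKM in HFHG and 50.05 to 54.1 FPKM in LG, with 3 of 3 tested genes higher. Most of this sum came from Acta2 (69.1 FPKM in HFHG and 45.7 FPKM in LG), and 5 of the 8 markers were below 0.5 FPKM in every library. The summed level of the skeletal muscle markers was 1.07 to 2.51 FPKM in HFHG and 3.49 to 4.34 FPKM in LG. The part of these lists in the results was not tested.

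The other markers of mesenchymal progenitors did not all follow Pdgfra and Cd34. Of 19 markers, 14 were tested, and 8 were higher and 5 lower in HFHG at an adjusted p below 0.05 by limma, and the median change was 0.48 in log2 units. Of the higher genes, Pi16 was tested through its HFHG libraries alone, as its LG values were 0.188 to 0.301 FPKM. With a minimum of 1 FPKM, 7 genes of this list were higher in place of 8. Cd248, which encodes the stromal protein endosialin, rose from 11.6 ± 0.613 to 60.7 ± 2.22 FPKM, which is a log2 change of 2.38. Itga11, a collagen-binding integrin, rose from 1.24 ± 0.0885 to 5.30 ± 0.551 FPKM (log2 fold change 2.01). Ctsk, the gene of the collagen-degrading protease cathepsin K, fell from 344 ± 11.0 to 98.4 ± 2.36 FPKM (log2 fold change -1.80). The other lower genes were Alcam (-0.38), Nes (-0.26), Itgb1 (-0.25) and Cd44 (-0.13). The stemness genes Nanog and Pou5f1 were below the filter.

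The relatives of Ly6a were measured as a list of 9 genes, of which 6 were tested, and 3 were higher and 1 was lower in HFHG, and the median change was 0.50 in log2 units. Ly6c1 rose from 19.9 ± 2.54 to 44.1 ± 2.37 FPKM (log2 fold change 1.15), and Cd59a, which encodes an inhibitor of complement, had a log2 fold change of 0.67. Plaur, the urokinase receptor gene, had a log2 fold change of -0.69. Ly6c2, a close paralog of Ly6c1, ran from 0.196 to 3.95 FPKM within HFHG. How reads of near-identical Ly6 genes were assigned is not given in the sources used here, so the values of Ly6c1 and Ly6c2 are uncertain.

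The tested genes of the PDGF system around Pdgfra had smaller estimates than the receptor itself, with no test of that difference. Pdgfrb, the beta receptor, was 28.8 ± 0.197 FPKM in HFHG and 25.7 ± 0.639 FPKM in LG, a log2 fold change of 0.16. Among the ligands, Pdgfd rose from 16.2 ± 0.862 to 25.6 ± 0.682 FPKM (log2 fold change 0.66) and Pdgfc fell from 16.6 ± 0.675 to 13.9 ± 0.229 FPKM (log2 fold change -0.25). Pdgfa was 5.46 ± 0.175 FPKM in HFHG and 5.98 ± 0.293 FPKM in LG and did not pass (adjusted p = 0.0558 by limma). Pdgfrl, a receptor-like gene, had a log2 fold change of 0.74. Of the 5 tested genes of this list, 3 were higher and 1 was lower, with a median of 0.16.

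A list of 12 genes around Egr1 and Egr2 held other EGR genes, their cofactors, upstream factors and immediate early genes. Of these, 10 were tested, and 3 were higher and 6 lower in HFHG at an adjusted p below 0.05 by limma, and the median change was -0.16 in log2 units. Nab2, which encodes a corepressor that binds EGR proteins and is itself induced by them, fell from 51.4 ± 1.29 to 32.6 ± 1.55 FPKM, which is a log2 change of -0.66. Of the other genes called lower, Nab1 is also an EGR corepressor. Its fall was small (log2 fold change -0.09, adjusted p = 0.0373 by limma), and its values overlapped between the media. Srf (-0.17) and Elk1 (-0.47) encode factors that act upstream of immediate early genes. The tested AP-1 genes differed in direction, as Fosb, Jun and Fos rose (log2 fold changes of 0.78, 0.52 and 0.40) and Junb fell (-0.14, adjusted p = 0.00475 by limma). The immediate early gene Ier2 fell as well (-0.20). Jun went from 32.4 ± 1.57 to 46.6 ± 0.746 FPKM and Fosb from 0.748 ± 0.140 to 1.34 ± 0.113 FPKM. Egr3 and Egr4 were below the filter.

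Other transcription factors of tendon and limb connective tissue were mostly higher in HFHG. Of 16 genes, 12 were tested, and 8 were higher and 2 were lower, and the median change was 0.27 in log2 units. Tbx3, a T-box factor of the limb, rose from 1.89 ± 0.241 to 4.22 ± 0.291 FPKM (log2 fold change 1.12), and Osr1, a zinc finger factor of limb connective tissue, from 3.42 ± 0.275 to 5.91 ± 0.125 FPKM (0.77). The forkhead gene Foxf1 fell from 3.80 ± 0.215 to 2.51 ± 0.519 FPKM (-0.60).

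TGF-beta signalling induces Scx during tendon development. It was measured together with GDF ligands and BMP receptors in a list of 16 genes, of which 15 were tested. Here 6 were higher, 5 were lower and 4 did not pass, against 34% higher and 30.8% lower over all tested genes. The median change was 0.08 in log2 units. The lower genes were the receptor genes Tgfbr1 (log2 fold change -0.70), Bmpr1b (-0.26) and Tgfbr2 (-0.12), the ligand gene Tgfb1 (-0.27) and Smad7 (-0.23). The ligands Tgfb3 and Gdf6 had the largest rises, from 9.48 ± 0.382 to 30.0 ± 0.494 FPKM and from 3.67 ± 0.354 to 11.8 ± 0.433 FPKM, or by 1.65 and 1.66 in log2 units. Tgfb2 was 0.892 ± 0.0866 FPKM in HFHG and 0.315 ± 0.0972 FPKM in LG (log2 fold change 1.29). All its LG values, 0.212 to 0.401 FPKM, were below the 0.5 FPKM of the filter, so it was tested through its HFHG libraries alone. With a minimum of 1 FPKM, 4 genes of this list were higher in place of 6.

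Tendon matrix genes, on which these factors act, were higher in HFHG in 20 of 23 tested genes of a list of 25, and 0 were lower. The median log2 fold change was 0.75, and 10 were upregulated past the threshold of the study's methods, as were 3.68% of all tested genes. Prelp, a small leucine-rich proteoglycan, rose from 71.5 ± 1.59 to 465 ± 4.23 FPKM (log2 fold change 2.70), Col12a1, a fibril-associated collagen, from 34.1 ± 3.21 to 142 ± 4.88 FPKM (2.06), and Cilp, a secreted matrix glycoprotein, from 0.465 ± 0.0906 to 6.83 ± 0.319 FPKM (3.63). Cilp reached the filter through its HFHG libraries, as LG replicate 3 was at 0.331 FPKM. Dcn, Comp and Fbn1 did not pass. Mkx and Egr1 were therefore lower in the same libraries in which most of the matrix genes were higher.

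**Figure D3:**
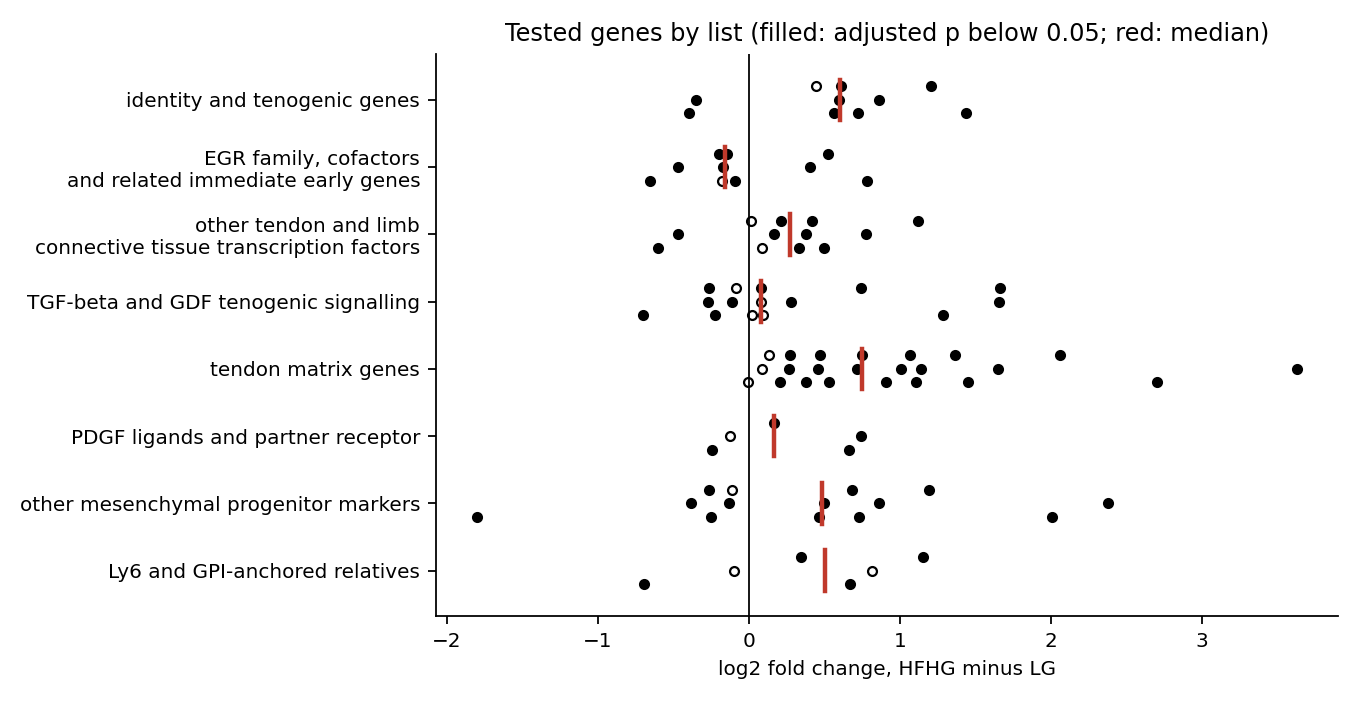
Log2 fold change (HFHG minus LG) of every tested gene of the 10 followed here and of 7 lists of related genes, filled where the adjusted p was below 0.05, with the median of each list in red. The matrix list has no filled point below 0, while the EGR list has more filled points below 0 than above.

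**Figure D4:**
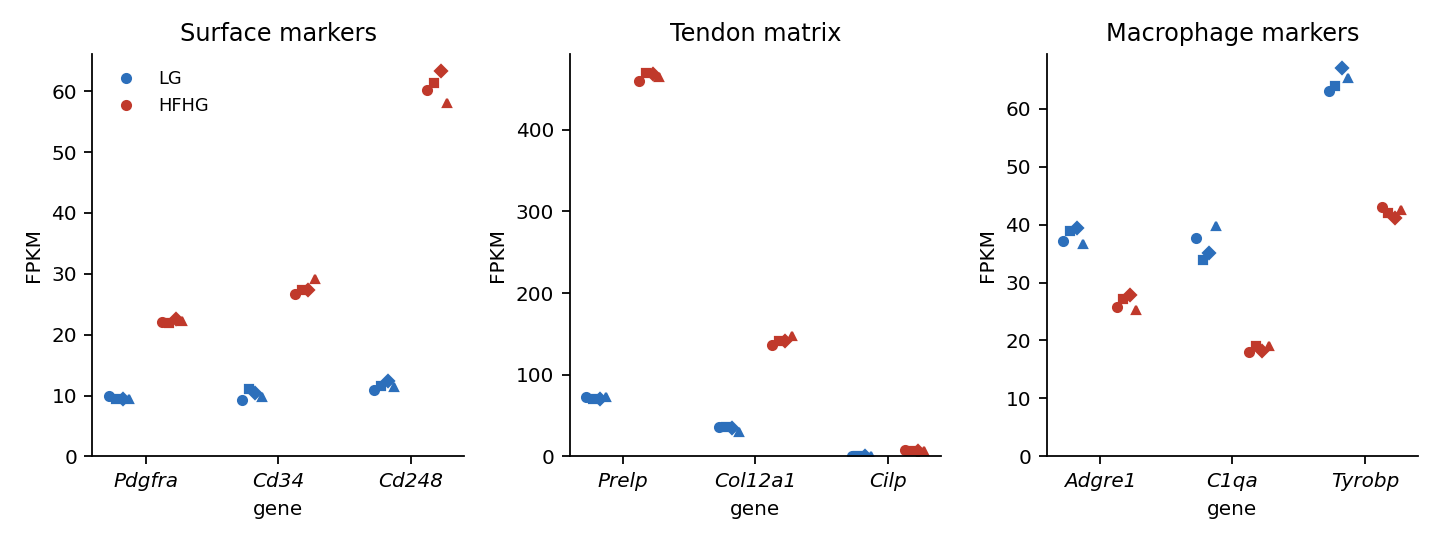
FPKM in each library (blue LG, red HFHG, marker shape by replicate number, axes from 0) for 3 surface markers, 3 matrix genes and 3 macrophage markers. Pdgfra, Cd34, Cd248, Prelp, Col12a1 and Cilp are higher in all HFHG libraries, and Adgre1, C1qa and Tyrobp are lower.

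The genes whose pattern over the 8 libraries was most like that of Cd34 by Pearson's r of log2(FPKM + 0.1) were Filip1l (r = 0.9998), Palld (0.999) and Ltbp1 (0.998). Filip1l was 20.2 FPKM in HFHG and 8.36 FPKM in LG on average. For Egr1 they were Eif4e2 (0.995), Smpdl3a (0.991) and Fbln2 (0.990), all with a log2 fold change between -0.24 and -0.14. The points fall into the 2 media, so most of each r is the difference between them, and 729 tested genes had an r above 0.98 with Cd34.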

How the data were processed

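mRNA of 8 TSC cultures, 4 in HFHG medium (25.5 mM glucose, 300 µM palmitic acid) and 4 in LG medium (5.5 mM glucose), was sequenced by the authors with a stranded kit. The authors deposited FPKM values per gene and library, with replicates not pooled. The submitters' processing notes name HISAT2 2.1.0 and mm10. The counting program, the annotation and any filter are not given in the sources used here. The sample titles gave the groups and the replicate numbers.

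FPKM is a whole number of reads times a constant, and whole reads (within 0.001) were recovered for 19300 of 19301 genes. They served for depth, for counting error and for 1 alternative. limma 3.58.1 in R 4.3.3 (lmFit, eBayes with trend) was run on log2(FPKM + 0.1) over 11710 genes, with Benjamini-Hochberg adjustment over all of them. It was also run on simulated data with 200 changed genes and the same spread beyond counting error in every gene. That spread was not taken from the genes followed here, so the simulation cannot speak for those with few reads. The deviations of equally numbered libraries correlated between -0.0736 and -0.0056, and the main fit did not pair libraries by number. These correlations cannot show whether equally numbered cultures shared a source, and a replicate block was run as an alternative. Positions come from GENCODE M21 (GRCm38), promoter windows from RefSeq GRCm38.p6, and primer sequences from the study's primer list.

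The genes, the gene lists and the tests were chosen with earlier results of these data known. Besides the 10 genes, the text names in each list the 3 genes that passed an adjusted p of 0.05 with the greatest absolute change, and for Cd34 and Egr1 (largest rise and fall) the 3 genes with the highest correlation. Macrophage and endothelial markers, Ly6c2, Pdgfa, Pdgfrb, Bop1, Nab1, Srf, Elk1, Fos, Junb, Ier2 and list members given without a passed test were named after their values were seen. So were Col1a1, Col1a2, Thbs4, Fmod, Acta2, Pi16, Tgfb1, Tgfbr1, Tgfbr2, Smad7, Bmpr1b, Cd44, Itgb1, Alcam and Nes. Of the mural, skeletal muscle, Schwann and epithelial markers, 3, 1, 4 and 0 genes were tested. Of these, 3, 0, 1 and 0 were higher and 0, 1, 0 and 0 lower in HFHG. All 6 epithelial markers were below 0.5 FPKM in every library, so none could be called. The 18 alternatives were 2 pseudocounts, 2 filters, 3 scalings, a replicate block, a robust eBayes, limma-voom on recovered reads and each library left out in turn.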

Additional observations from a re-analysis of the deposited data

Results flagged for a closer look

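Among 62 groups of 4 libraries 2 held a library whose gap to its nearest neighbour was above the 95% limit of Dixon's test, where chance gives about 1 in 20 groups. Pdgfra was 9.99 FPKM in LG replicate 1 and 9.44 to 9.48 FPKM in the other LG replicates, a gap small beside the HFHG values of 22.0 to 22.5 FPKM. Cilp was 0.331 FPKM in LG replicate 3 and 0.499 to 0.530 FPKM in the other LG replicates.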

How the results depend on the processing

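The direction of the 10 genes was the same in each of the 18 alternatives that could test them, and 9 of them kept their side of an adjusted p of 0.05. Egr2 was not tested with a minimum of 1 FPKM and passed with FPKM rescaled to the same sum (adjusted p = 0.0353), with limma-voom on recovered reads (0.0402) and in 2 fits that left out 1 library. With the replicate number as a block, Egr2 passed as well (adjusted p = 0.0390, log2 fold change 0.44), which gave 8 upregulated genes of the 10, and the block changed no other call among them. Scx came closest to the threshold when HFHG replicate 2 was left out (adjusted p = 0.0466). At a log2 fold change above 1, 3 of the 10 genes were upregulated with quantile normalization (Ly6a added) or without LG replicate 3 (Tnmd added). With a pseudocount of 1, 197 tested genes were upregulated and 106 downregulated at that threshold, against 431 and 193. Of the PDGF list, 2 genes were lower with median-ratio scaling, with quantile normalization and with limma-voom, and 1 to 2 over the fits that left out 1 library. Tnmd, Egr2, Scx and Tppp3 rest on 10 to 163 reads per library. The variance between replicates was above the Poisson variance for Scx, Egr2 and Tppp3 in both media and for Tnmd in LG, least so for Tppp3 in LG (2.15 times). Each variance rests on 4 libraries, and whether it exceeds counting error was not tested.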

Other observations

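Scx and Mkx shared their highest and lowest libraries in both media. In HFHG, replicate 2 was highest (2.88 and 7.35 FPKM) and replicate 3 lowest (1.53 and 6.05 FPKM) for both genes, and in LG, replicate 3 was highest (1.76 and 9.30 FPKM) and replicate 4 lowest (0.983 and 7.77 FPKM). HFHG replicate 3 was also the lowest HFHG library for Egr2 (0.519 FPKM) and the highest for Tppp3 (3.85 FPKM). With 4 libraries in a group, no correlation within a medium was computed. This pair was picked after the replicate order of all 10 genes was seen, and its shared order was not tested. Scx rests on 56 to 163 reads per library, so its order is uncertain. Scx and Mkx differed between the media in opposite directions, so the order among replicates and the difference between media do not run together for this pair.

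For 3 of the 4 low genes the variance of the reads was above the Poisson variance in both media, and for Tnmd only in LG. Each variance rests on 4 libraries, and the excess was not tested. The variance over the Poisson variance was 7.95 in HFHG and 4.41 in LG for Scx, 8.49 and 2.15 for Tppp3, and 5.70 and 4.51 for Egr2. For Tnmd it was 0.362 in HFHG and 6.78 in LG. Pdgfra, with far more reads, had 0.865 and 2.09, and Egr1 had 6.12 in HFHG and 0.264 in LG.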
